A study of Mus musculus with 12 samples.

Results

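The comparison described here set the 8 mice on the high-fat diets against the 4 mice on the control diet, and looked for genes whose spleen RNA differed from control in the same direction on HFD-CO and on HFD-ED. The members were chosen by the diet in the sample titles, 4 on HFD-CO and 4 on HFD-ED, and with the 4 control mice they are all 12 samples of the series. Each mouse gave 1 Illumina MouseWG-6 array. The mice were male C57BL/6J, an inbred laboratory strain, that arrived at 6 weeks of age and were fed the diets for 8 weeks after 3 weeks on chow.

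In 100 g of control diet there were 5 g of fat, which gave 12% of the energy, and 5 g of sucrose, with no added cholesterol. The fat of the control diet was 2.5 g of corn oil and 2.5 g of coconut oil. In 100 g of either high-fat diet there were 15 g of fat, which gave 32% of the energy, 1 g of cholesterol and 10 g of sucrose. Coconut oil made up 10 g of that fat in both. The rest was 5 g of corn oil in HFD-CO, and in HFD-ED 3 g of corn oil with 2 g of an oil of EPA and DHA, polyunsaturated fatty acids that occur in fish. The amount of fat, the make-up of its oils, cholesterol and sucrose differ together between the high-fat diets and control. The paper also lists more casein and less corn starch in the high-fat diets. These differences cannot be told apart here. The mice were housed in groups, and those used for arrays had been selected by body weight and plasma lipids, so they are not a random draw from their diet group.

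The spleen filters blood, and its red pulp macrophages take up old erythrocytes and return their iron, while its white pulp holds B and T lymphocytes. Cells sense cholesterol in more than one way: a rise in cell sterol silences the synthesis genes driven by SREBP2, and oxysterols activate LXR, which drives efflux and lipoprotein genes. Heat shock proteins are chaperones whose genes are driven by heat shock factor through elements in their promoters.

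Values are the deposited normalized intensities on a scale close to log2, where a doubling is a difference of 1 for bright probes and of less than 1 for dim ones. They run from 6.95 to 14.79, and 75.2% of probes have a mean under 7.5, close to the lower end. A gene was represented by its brightest probe, which gave 19057 genes. Defining markers of spleen were bright, with means of 12.72 for Cd79b of B cells, 10.16 for Cd3e of T cells and 12.76 for Vcam1, and those of skeletal muscle (Ckm, Acta1, Mylpf and Myh4), the tissue that a text of the study names, lay between 7.04 and 7.42. The red pulp macrophage marker Cd5l stood at 7.05.

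Averaged over both oils, no gene differed from control beyond the spread between mice after adjustment. In limma, with the Benjamini-Hochberg method over 45281 probes, 0 probes (0%) were called higher and 0 (0%) lower at an adjusted p of 0.05, and the smallest adjusted p was 0.406. At an unadjusted p under 0.05, 1091 probes (2.41%) were higher and 1798 (3.97%) lower. Each oil on its own gave 0 calls (0%) in limma too. For HFD-CO the smallest adjusted p was 0.975, with 969 probes (2.14%) higher and 1103 (2.44%) lower at an unadjusted p under 0.05. For HFD-ED it was 0.071, with 2054 (4.54%) higher and 2566 (5.67%) lower. The 95% interval of a pooled difference had a median width of 0.161 to either side among genes with a mean of 7.5 or higher. All genes named below are therefore described by their values, and none passed the adjusted threshold.

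Of the 19057 genes, 5595 (29.4%) were higher and 6808 (35.7%) lower on both diets. Both comparisons share the 4 control mice, which by itself pushes their differences the same way, so these shares are no measure of likeness between the oils. An unadjusted p under 0.05 on each diet was reached in the same direction by 72 genes (0.378%) that were higher and 260 (1.36%) that were lower, and in opposite directions by 11 (0.0577%). The strictest of the counts took genes for which all 8 high-fat mice lay above, or all below, all 4 control mice. There were 50 such genes (0.262%) above control and 83 (0.436%) below. The share that chance alone would give was not computed, so these counts by themselves are no measure of a difference between the diets.

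The 83 lower ones had a median level of 7.941 and a median difference of -0.164, and 34 of them differed by 0.2 or more. The 50 higher ones were mostly dim, with a median level of 7.258, a median difference of 0.064 and 6 that differed by 0.2 or more. Among the 7015 genes with a mean of 7.5 or higher, 53 (0.756%) were lower and 16 (0.228%) higher without overlap. The difference from control was larger on HFD-ED for 66 of the 83 and 29 of the 50. A test between the oils (HFD-ED minus HFD-CO) gave an unadjusted p under 0.05 for 22 of the 133 (16.5%), beside 11.9% of all genes, and an adjusted p under 0.05 for none of them by limma, which called 1 probe of all 45281 (0.00221%) between the oils.

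**Figure D1:**
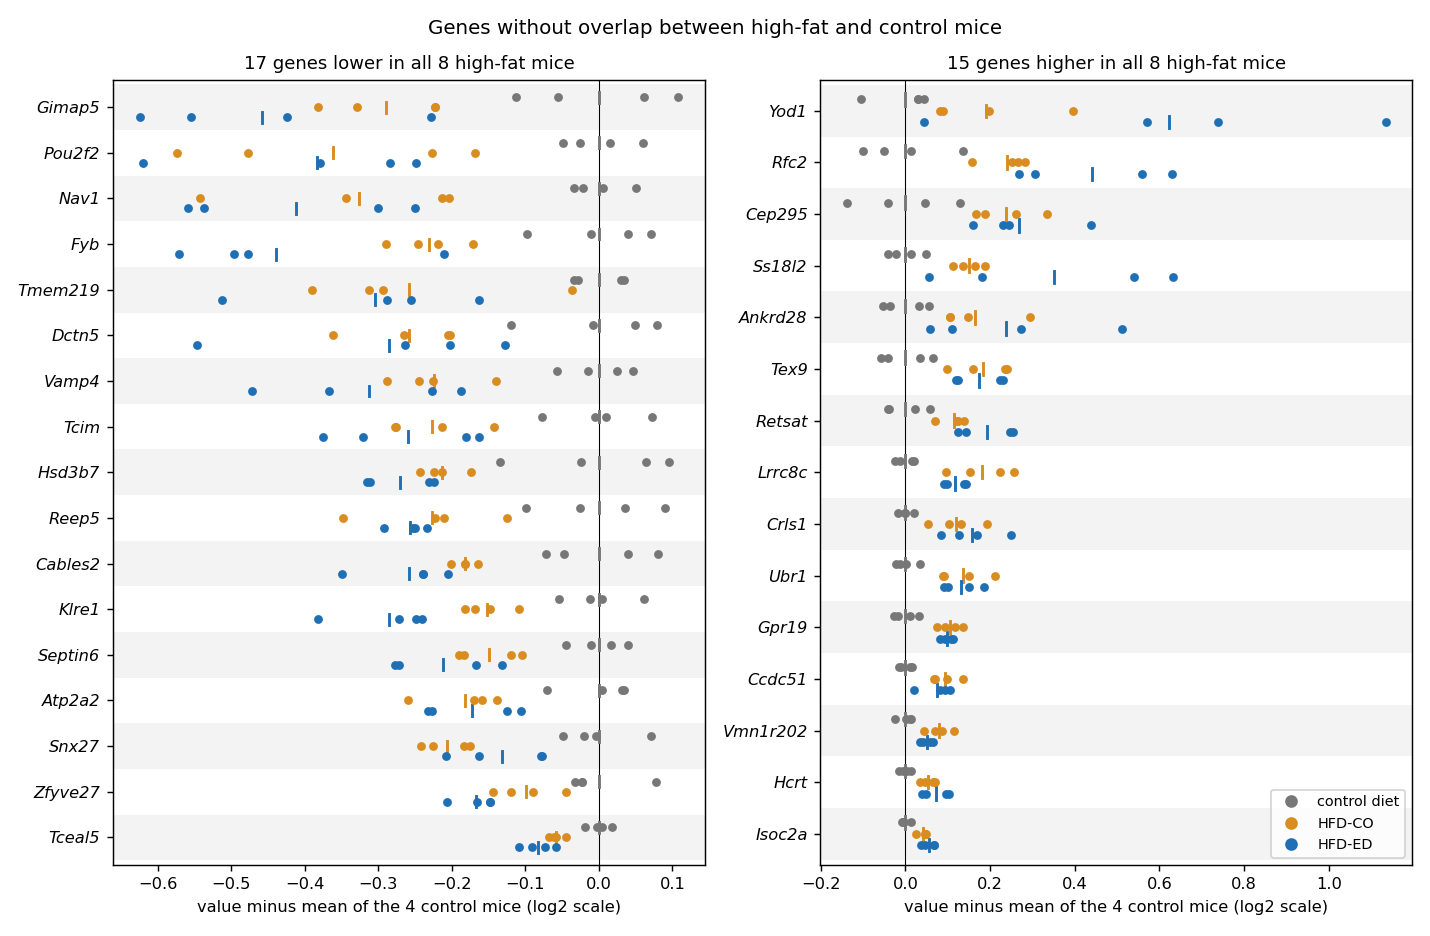
Values of the genes without overlap that the naming rules picked, 17 lower and 15 higher, each mouse as a point on the log2 scale after subtraction of the mean of the 4 control mice, with a bar at each diet's mean. For Pou2f2 both diets' points spread over the same range, whereas for Yod1 3 HFD-ED mice lie to the right of the other 5 high-fat mice.

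Klre1, a lectin-like receptor of natural killer cells, had the smallest p of the lower genes. The control mice measured 8.17, 8.12, 8.06 and 8.10. On HFD-CO the values were 7.964, 7.930, 7.943 and 8.003, and on HFD-ED 7.73, 7.87, 7.84 and 7.86. All 8 high-fat mice lay below the lowest control mouse, and all HFD-ED mice below all HFD-CO mice. The pooled difference was -0.22 (SE 0.0294, 95% interval -0.28 to -0.15, adjusted p = 0.406), made of -0.15 on HFD-CO and -0.29 on HFD-ED, and the oils differed by -0.13 at an adjusted p of 0.35.

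Hsd3b7 encodes a dehydrogenase of bile acid synthesis that also breaks down an oxysterol guiding B cells within lymphoid tissue. Its control values were 9.73, 9.76, 9.53 and 9.64. The HFD-CO mice measured 9.49, 9.45, 9.42 and 9.44, and the HFD-ED mice 9.35, 9.44, 9.43 and 9.35. These 8 values fell within a narrow range below the lowest control mouse, with a pooled difference of -0.24 (SE 0.0392, adjusted p = 0.425). The oils differed by -0.06 (95% interval -0.16 to 0.04).

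The lower genes of largest size included some of lymphocytes. Pou2f2, the B cell transcription factor Oct2, measured 8.85, 8.77, 8.81 and 8.74 in control mice. It measured 8.56, 8.22, 8.31 and 8.62 on HFD-CO and 8.54, 8.51, 8.17 and 8.41 on HFD-ED. Its differences of -0.36 and -0.38 on the diets were nearly equal (oils -0.02, 95% interval -0.24 to 0.20), and the pooled value was -0.37 (SE 0.085, adjusted p = 0.534).

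Fyb, an adaptor downstream of the T cell receptor, stood at 10.06, 10.14, 10.11 and 9.97 in control mice. HFD-CO mice measured 9.82, 9.78, 9.85 and 9.90 and HFD-ED mice 9.86, 9.59, 9.50 and 9.57. HFD-ED replicate 1 thus lay among the HFD-CO mice and the other 3 below them. The pooled difference of -0.34 (SE 0.0591, adjusted p = 0.425) reached an adjusted p of 0.0499 in the fit without HFD-ED replicate 1, and with HFD-ED replicate 1 as the only mouse of that diet it was -0.22. Vav1 and Vav2, exchange factors of the same signalling step in lymphocytes that were picked out after their values were seen, were also lower without overlap, by -0.25 and -0.23.

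Gimap5, a GTPase needed for lymphocyte survival, was lower by -0.37 (SE 0.0707, adjusted p = 0.476), with high-fat mice from 8.25 to 8.65 (median 8.52) and control mice from 8.76 to 8.99. The other Gimap5 probe with a mean over 7.5 had the opposite sign. Nav1, a microtubule-binding protein, was lower by -0.37 (SE 0.074, adjusted p = 0.476), with 2 of 2 other bright probes of the same sign.

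A group of proteins that shape or sort membranes stood among the genes of smallest p: Reep5, which bends endoplasmic reticulum, at -0.24, Snx27, an endosomal sorting protein, at -0.17, Vamp4, a vesicle fusion protein, at -0.27, and Zfyve27, of the endoplasmic reticulum, at -0.13. They were not a list written for this work, and the grouping was made after their values were seen. For Snx27 the high-fat mice ran from 8.88 to 9.05 (median 8.95) and the control mice from 9.08 to 9.20, and 3 of 3 other bright probes had the same sign. Vamp4 ran from 9.15 to 9.48 (median 9.39) on the high-fat diets and from 9.57 to 9.67 on control. Atp2a2, the calcium pump of that organelle, was lower by -0.18, with 1 of 2 other bright probes of the same sign.

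The others named by rule were Cables2 (-0.22), Septin6 (-0.18), Tceal5 (-0.07), Tcim (-0.24), Dctn5, a subunit of the dynein cofactor dynactin (-0.27), and Tmem219 (-0.28). Tmem219 lay at the edge of the criterion, since HFD-CO replicate 4 and the lowest control mouse were equal at 8.51 to the printed decimals. With the mean of all probes of a symbol in place of the brightest one, differences shrank by more than 1.5 times for Cables2 (-0.09), Septin6 (-0.06), Snx27 (-0.06), Atp2a2 (-0.09), Tcim (-0.12), Nav1 (-0.20), Gimap5 (-0.17), Vav2 (-0.05) and Tmem219 (-0.13), and of genes given further on for Cd40 (-0.13), Axl (-0.11), Cxcl12 (-0.05), Rfc2 (0.19), Retsat (0.09), Crls1 (0.06), Cep295 (0.09), Slc40a1 (-0.12) and Gstp1 (0.17), with no change of sign.

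Of the higher genes, Gpr19, an orphan receptor, had the smallest p but a small difference. Control mice measured 7.32, 7.35, 7.32 and 7.37, HFD-CO mice 7.44, 7.48, 7.46 and 7.42, and HFD-ED mice 7.46, 7.42, 7.44 and 7.45. The pooled difference was 0.10 (SE 0.0154, adjusted p = 0.406) and the oils differed by -0.01 (95% interval -0.05 to 0.03). This level is near the lower end, where differences are compressed.

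Rfc2, a subunit of the clamp loader of DNA replication, was the brightest of the higher genes without overlap that are named. It stood at 10.309, 10.260, 10.374 and 10.495 in control mice, at 10.62, 10.52, 10.61 and 10.64 on HFD-CO and at 10.63, 10.67, 10.92 and 10.99 on HFD-ED. The highest control mouse lay just under the lowest HFD-CO mouse. The pooled difference was 0.34 (SE 0.0699, adjusted p = 0.482), and 3 of 3 other bright probes had the same sign.

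Retsat, an enzyme of retinol metabolism, was higher by 0.15, with high-fat mice from 7.99 to 8.17 (median 8.05) and control mice from 7.88 to 7.98. Crls1, the synthase of the mitochondrial lipid cardiolipin, was higher by 0.14, with 8.22 to 8.42 (median 8.29) on the high-fat diets and 8.15 to 8.19 on control. Cep295, a centriole protein, was higher by 0.25, Tex9 by 0.18, Lrrc8c, a subunit of volume-regulated anion channels, by 0.15, and Ubr1, a ubiquitin ligase, by 0.13. Smaller differences at levels under 7.5 were those of Ccdc51 (0.08), Isoc2a (0.05), Vmn1r202 (0.06) and Hcrt (0.06).

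Some higher genes were uneven among the HFD-ED mice. Yod1, a deubiquitinase, measured 7.78, 7.93, 7.92 and 7.92 in control mice, 7.97, 8.08, 8.28 and 7.97 on HFD-CO and 7.93, 8.62, 9.02 and 8.45 on HFD-ED. With HFD-ED replicate 1 as the only mouse of that diet, the pooled difference of Yod1 went from 0.41 to 0.12, that of Ankrd28 from 0.20 to 0.11 and that of Ss18l2 from 0.25 to 0.17. HFD-ED replicates 3 and 4 were the highest HFD-ED mice for Ankrd28 (8.20 and 7.96, with 7.75 and 7.80 in replicates 1 and 2) and Ss18l2 (10.30 and 10.21, with 9.85 and 9.73). Yod1 and Ankrd28 lay at the edge of the criterion without overlap. For each, HFD-ED replicate 1 and the highest control mouse were equal to the printed decimals, at 7.93 and 7.75. Erythroid and cell division genes, given further on, were high in HFD-ED replicates 2, 3 and 4, and their part in these results was not tested.

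The gene lists were described without a test, by counts and medians beside all genes, of which 47.2% were higher and 52.8% lower, with a median of -0.0021 (-0.0181 among genes with a mean of 7.5 or higher). Over all genes 2.72% were higher and 5.05% lower at an unadjusted p under 0.05, and among genes with a mean of 7.5 or higher 3.75% and 9.11%.

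**Figure D2:**
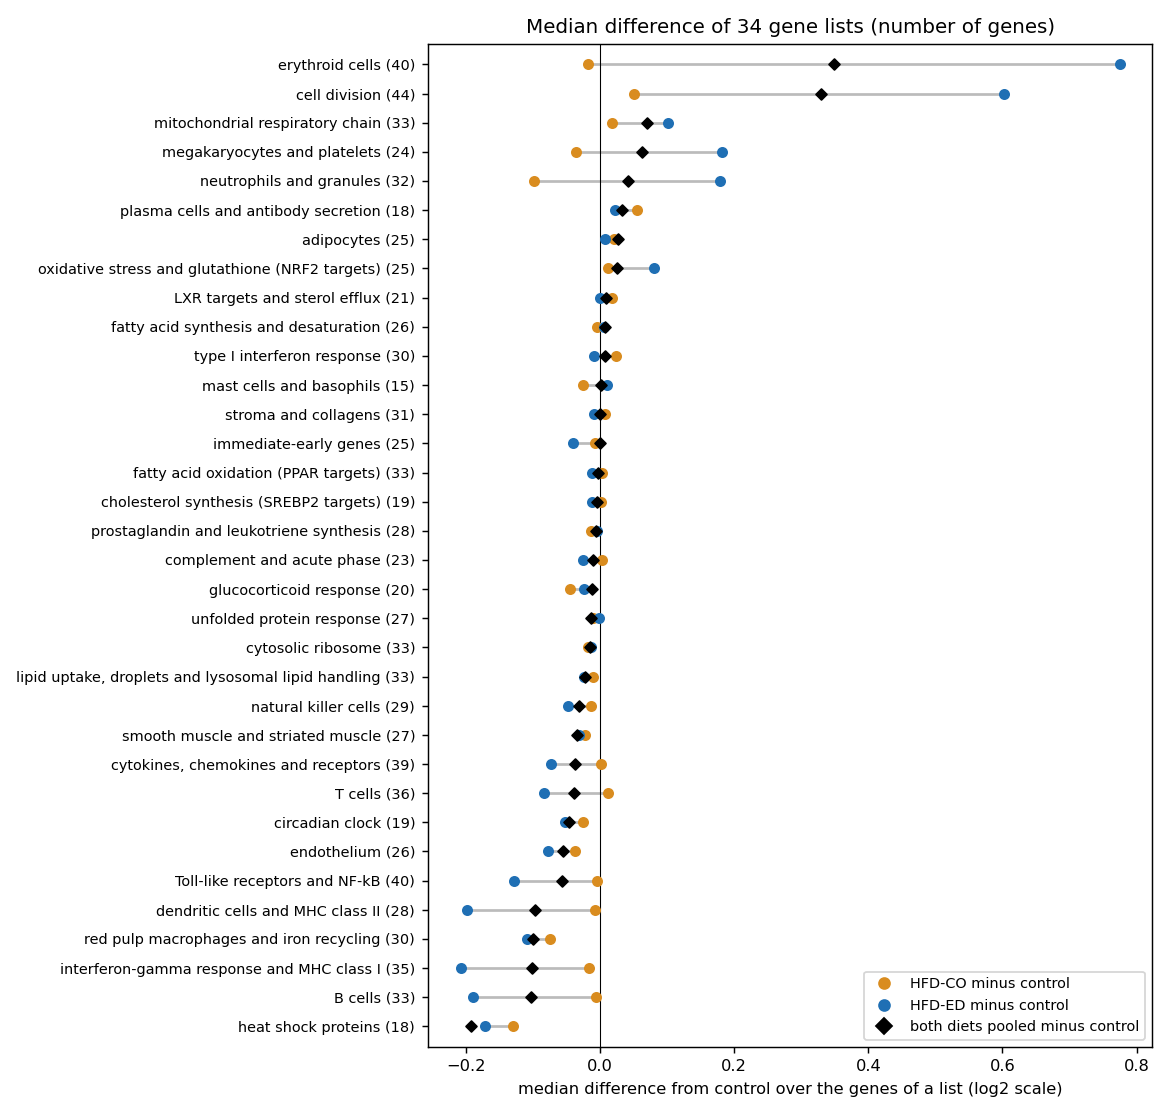
Median difference from control over the genes of 34 lists, on the log2 scale, with HFD-CO and HFD-ED as circles joined by a line and the pooled contrast as a diamond; the number of genes is in brackets and the pancreatic acinar list is left out. The heat shock and red pulp macrophage lists lie below 0 on both diets, whereas for erythroid cells, cell division, B cells and MHC class II the HFD-CO circle is close to 0.

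The sterol-regulated lists were divided between higher and lower genes. Of 19 measured genes of cholesterol synthesis, 8 were higher and 11 lower, with a median of -0.0046 and 1 gene at an unadjusted p under 0.05. This was Sc5d, which adds a double bond late in the pathway, at -0.07 (95% interval -0.13 to -0.01). Its mean of 7.15 is near the lower end, where differences are compressed. Tmem97, a sterol-regulated membrane protein, was at 0.16 (-0.05 to 0.38), Mvd, of the mevalonate steps, at -0.07 (-0.16 to 0.03) and Ebp, a sterol isomerase, at -0.07 (-0.17 to 0.04).

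Of 21 LXR targets and genes of sterol efflux, 13 were higher and 8 lower, with a median of 0.009, which was -0.0214 over the genes with a mean of 7.5 or higher. The lipoprotein genes were the higher ones of size. Apoc1 measured 8.75, 8.42, 8.31 and 8.05 in control mice, 8.71, 9.25, 8.97 and 8.55 on HFD-CO and 9.25, 8.77, 8.56 and 8.72 on HFD-ED. The ranges overlapped, because control replicate 1 lay near the median of the high-fat mice, and the pooled difference was 0.47 (SE 0.167, 95% interval 0.10 to 0.84, adjusted p = 0.731), with 0.49 on HFD-CO and 0.45 on HFD-ED.

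Apoe, the main apolipoprotein made by macrophages, measured 10.65, 10.64, 10.93 and 10.67 in control mice. It stood at 11.27, 11.30, 11.18 and 10.90 on HFD-CO and at 11.30, 11.17, 10.51 and 10.92 on HFD-ED. Of the 8 high-fat mice 5 lay above all control mice and 1, HFD-ED replicate 3, below them all, with a pooled difference of 0.35 (SE 0.134, adjusted p = 0.749).

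The efflux transporter Abcg1 did not go with them, at -0.10 (95% interval -0.21 to 0.01), and at -0.05 without control replicate 1. Cyp27a1, a mitochondrial sterol hydroxylase that makes an oxysterol, was lower by -0.38 (SE 0.129, adjusted p = 0.717). Its control mice ran from 9.51 to 10.27 and its high-fat mice from 9.17 to 9.85 (median 9.50), with 2 of 2 other bright probes of the same sign, and without control replicate 1 the difference was -0.25. With Hsd3b7 this makes 2 enzymes of bile acid synthesis that were lower on both diets, a pairing made after the values were seen.

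Fatty acid genes were as evenly divided. Among 33 genes of fatty acid oxidation 15 were higher and 18 lower (median -0.003), and among 26 of fatty acid synthesis and desaturation 15 were higher and 11 lower (median 0.0076). Ppard, a fatty acid sensing nuclear receptor, was lower by -0.13 on HFD-CO and -0.12 on HFD-ED (pooled adjusted p = 0.663), with 6 of 8 high-fat mice below all control mice. Elovl5, an elongase of polyunsaturated fatty acids, was lower by -0.31 (adjusted p = 0.749), Angptl4, a lipase inhibitor and PPAR target, by -0.24, Acly, which makes acetyl-CoA for lipid synthesis, by -0.09, and Hadh, of beta-oxidation, was higher by 0.06 at a level near the lower end. Of 33 genes of lipid uptake, droplets and lysosomes 24 were lower (median -0.0231), among them Lgals3 (-0.13), a lectin of macrophages, and Lamp1 (-0.15), a lysosomal membrane protein. Lamp2, another lysosomal membrane protein, was at 0.29 (SE 0.159, adjusted p = 0.797), with 0.46 on HFD-CO and 0.13 on HFD-ED. Of its 4 other bright probes 2 had the same sign, and of the high-fat mice 1 lay above all control mice and 1 below them all.

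**Figure D3:**
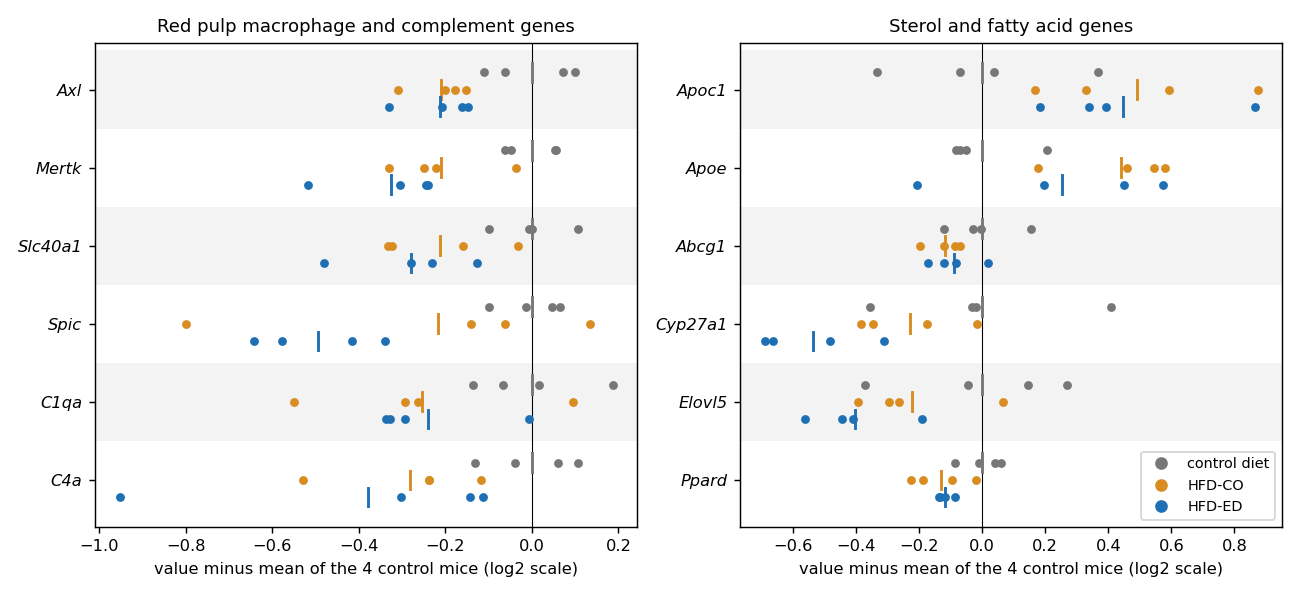
Values of 6 macrophage and complement genes (left) and 6 sterol and fatty acid genes (right), each mouse as a point on the log2 scale after subtraction of the control mean, with a bar at each diet's mean. All 8 high-fat points lie left of the control points for Axl, and for Apoc1 all 8 lie right of the control mean but overlap the highest control mouse.

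Genes of red pulp macrophages and iron recycling were lower on both diets. Of 30 measured, 7 were higher and 23 lower, 18 were lower on both diets and 5 had an unadjusted p under 0.05, all lower. The median was -0.10, with -0.08 on HFD-CO and -0.11 on HFD-ED. The median deviation of the list in each mouse, taken from each gene's mean over the 12 mice, was 0.09, 0.12, 0.07 and 0.00 in control mice, 0.02, -0.08, -0.02 and -0.03 on HFD-CO and -0.08, 0.05, -0.11 and -0.12 on HFD-ED. Of the 8 high-fat mice, 6 lay below all control mice. The median was -0.09 with HFD-ED replicate 1 as the only mouse of that diet, -0.05 without control replicate 2 and -0.05 with the mean of all probes of a symbol. In RNA of a whole organ, fewer cells of a type and less RNA per cell cannot be told apart.

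Axl, a receptor for dying cells, was the list's gene without overlap. Control mice measured 12.62, 12.59, 12.46 and 12.41, HFD-CO mice 12.36, 12.21, 12.32 and 12.34 and HFD-ED mice 12.37, 12.35, 12.19 and 12.31. Both oils gave -0.21, and the pooled difference was -0.21 (SE 0.0487, 95% interval -0.32 to -0.10, adjusted p = 0.534). The highest high-fat mouse lay just under the lowest control mouse.

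Mertk, a sister receptor of Axl, was lower by -0.27 (SE 0.0623, adjusted p = 0.534) with 7 of 8 high-fat mice below all control mice. Its control mice measured 9.36, 9.36, 9.26 and 9.25, its HFD-CO mice 9.27, 8.98, 9.09 and 9.06 and its HFD-ED mice 9.069, 8.792, 9.003 and 9.064. HFD-CO replicate 1 was the exception.

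Slc40a1, the iron exporter ferroportin, was lower by -0.25 (SE 0.0727, adjusted p = 0.64). Control mice measured 13.37, 13.48, 13.36 and 13.27, HFD-CO mice 13.21, 13.05, 13.04 and 13.34 and HFD-ED mice 12.89, 13.14, 13.24 and 13.09, so that 7 of 8 lay below all control mice. Spic, the transcription factor that specifies these macrophages, was lower by -0.36 (SE 0.141), with -0.22 on HFD-CO and -0.49 on HFD-ED. Its HFD-CO mice were uneven, at 11.352, 10.418, 11.076 and 11.155, beside 11.118 to 11.282 in control mice. Of the 8 high-fat mice 6 lay below all control mice and 1, HFD-CO replicate 1, above them all. Among complement genes, C1qa, made by macrophages, was lower by -0.25 on HFD-CO and -0.24 on HFD-ED, and C4a by -0.28 and -0.38, while the list of 23 complement and acute phase genes had 11 higher and 12 lower.

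Of 18 heat shock protein genes, 17 were lower and 1 higher in the pooled contrast, and 15 were lower on both diets. Their median difference was -0.19, the lowest of the 35 lists, with -0.13 on HFD-CO and -0.17 on HFD-ED, and 0 of the 18 differed between the oils at an unadjusted p under 0.05. In no gene did the groups separate, and 2 genes had an unadjusted p under 0.05. One mouse went against the rest. The list's median deviation was 0.08, 0.11, 0.26 and 0.03 in control mice, -0.26, -0.10, 0.54 and -0.37 on HFD-CO and 0.07, -0.22, 0.01 and -0.19 on HFD-ED. HFD-CO replicate 3 lay above all control mice, HFD-ED replicate 1 within them, and the other 6 below. Without HFD-CO replicate 3 the median was -0.26, without HFD-CO replicates 1 and 4 together it was -0.08, with HFD-ED replicate 1 as the only mouse of that diet -0.11 and with the mean of all probes of a symbol -0.12.

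**Figure D4:**
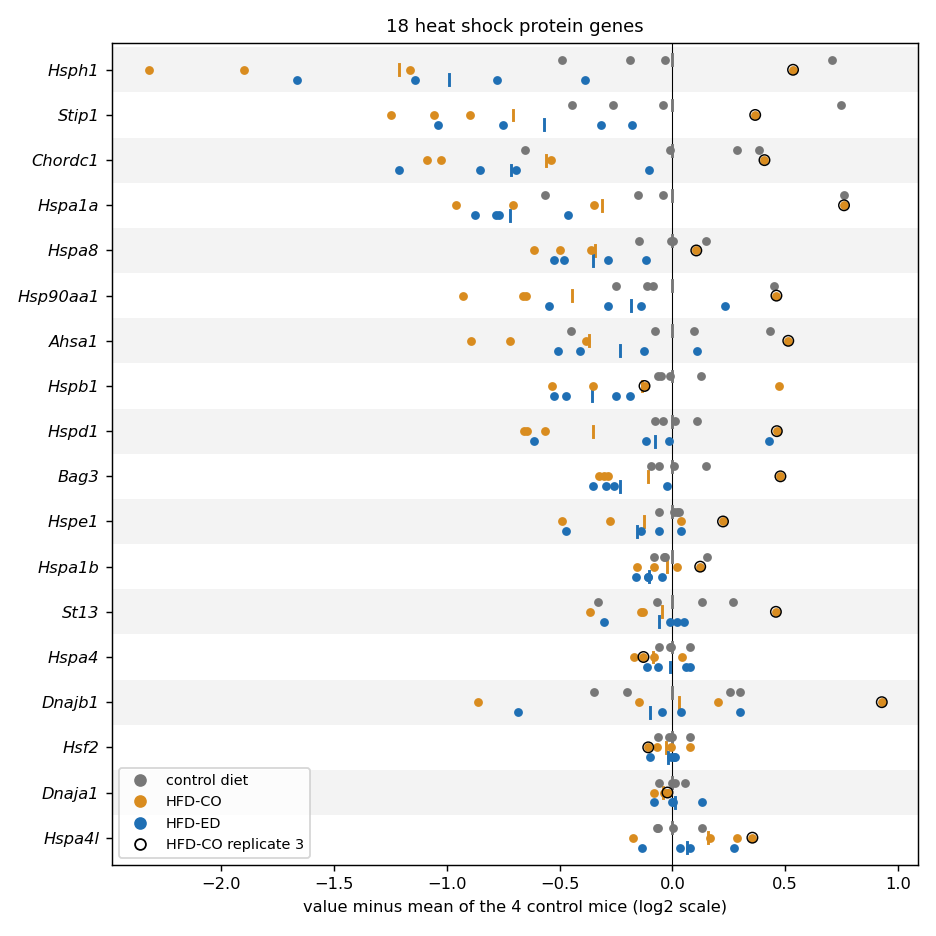
Values of the 18 heat shock protein genes, each mouse as a point on the log2 scale after subtraction of the mean of the 4 control mice, with a bar at each diet's mean and HFD-CO replicate 3 ringed. The other high-fat mice lie mostly left of 0 for Hsph1, Stip1, Chordc1 and Hspa8, and the ringed mouse lies right of 0 for all 4.

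Hspa8, the constitutive chaperone of its family, measured 13.69, 13.84, 13.69 and 13.54 in control mice. On HFD-CO it measured 13.19, 13.33, 13.80 and 13.08 and on HFD-ED 13.57, 13.17, 13.41 and 13.21. Its pooled difference was -0.35 (SE 0.125, adjusted p = 0.731), with -0.34 and -0.35 on the diets and 2 of 2 other bright probes of the same sign.

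Hsph1, a nucleotide exchange factor of that family, had the largest difference of the list at -1.10 (SE 0.474, 95% interval -2.15 to -0.06, adjusted p = 0.767). Control mice measured 11.66, 11.50, 12.40 and 11.20, HFD-CO mice 9.79, 10.52, 12.22 and 9.37 and HFD-ED mice 11.30, 10.03, 10.91 and 10.55. Chordc1 and Stip1, cochaperones of HSP90, were both lower by -0.64 (95% intervals -1.32 to 0.04 and -1.34 to 0.06), and Stip1 by -0.39 without control replicate 3. Ptges3, the HSP90 cochaperone p23, stood in the list of prostaglandin synthesis and was lower by -0.21 (SE 0.0658, adjusted p = 0.67), with 7 of 8 high-fat mice below all control mice.

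The promoters of these genes are shown because most genes of the list were lower. RefSeq promoter entries (build GRCm38.p6) were matched by symbol for 15 of the 18 genes, and the 250 bases before the start were searched on both strands for the paired heat shock element units GAANNTTC and TTCNNGAA, each of which is its own reverse complement and which may overlap. A unit was held by 7 of the 15 genes, beside 13.1% of 15237 measured genes with an entry. These 7 are not separate promoters. Hspd1 and Hspe1 share 1 stretch read on opposite strands, and the windows of Hspa1a and Hspa1b are nearly identical, with the same unit 104 bases before the start. Of the 7 genes with a unit 7 were lower (median -0.22) and of the 8 without one 7 were lower (median -0.11). The windows of the 3 genes with the largest differences, and of Hspe1, where units overlap, are given with the units in capitals. A match is a description of the letters and not a site of binding.
Hsph1 (chr5:149636316-149636565, minus strand): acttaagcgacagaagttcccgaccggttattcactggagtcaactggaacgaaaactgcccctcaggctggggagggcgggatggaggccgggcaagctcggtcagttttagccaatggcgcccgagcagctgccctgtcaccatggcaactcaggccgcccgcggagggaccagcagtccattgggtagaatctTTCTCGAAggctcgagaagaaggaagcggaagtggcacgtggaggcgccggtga
Hspe1 (chr1:55087898-55088147, plus strand): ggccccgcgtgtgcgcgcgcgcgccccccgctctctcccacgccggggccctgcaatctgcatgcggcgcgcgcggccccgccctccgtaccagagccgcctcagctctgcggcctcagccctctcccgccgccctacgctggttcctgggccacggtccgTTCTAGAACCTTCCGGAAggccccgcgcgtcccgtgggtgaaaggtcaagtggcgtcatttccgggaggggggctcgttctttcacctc
Chordc1 (chr9:18292017-18292266, plus strand): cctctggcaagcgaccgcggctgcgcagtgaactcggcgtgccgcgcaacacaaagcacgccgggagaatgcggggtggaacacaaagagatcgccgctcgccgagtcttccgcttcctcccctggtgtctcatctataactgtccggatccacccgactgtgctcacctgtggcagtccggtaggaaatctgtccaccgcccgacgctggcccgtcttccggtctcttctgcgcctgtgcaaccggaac
Stip1 (chr19:7040027-7040276, minus strand): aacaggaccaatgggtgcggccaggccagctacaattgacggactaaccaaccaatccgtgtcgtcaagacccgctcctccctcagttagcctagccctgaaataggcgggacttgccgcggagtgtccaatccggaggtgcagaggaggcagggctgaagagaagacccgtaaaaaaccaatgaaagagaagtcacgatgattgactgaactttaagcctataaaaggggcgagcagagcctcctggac
In the windows shown, Hsph1 held 1 unit, starting 54 bases before the start, and Hspe1, the mitochondrial chaperonin of the smaller ring, held 3 overlapping units. Chordc1 and Stip1, whose differences were the largest after Hsph1, held no unit of these letters in this window.

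Of 29 natural killer genes measured, 4 were higher and 25 lower in the pooled contrast, and 17 were lower on both diets. The median was -0.03, with -0.01 on HFD-CO and -0.05 on HFD-ED, and it was -0.17 over the genes with a mean of 7.5 or higher. Between the oils 7 of the 29 had an unadjusted p under 0.05, and in the pooled contrast 6 had an unadjusted p under 0.05, all lower. In the 7 high-fat mice other than HFD-CO replicate 2 the list's median deviation lay below that of all control mice. Klra3 and Klra4, of the Ly49 receptor family, were lower by -0.22 (SE 0.0344, adjusted p = 0.406) and -0.31 (SE 0.0953), and Ccl5, a chemokine of cytotoxic lymphocytes, by -0.35 (SE 0.125). The Ly49 genes are near copies of each other, and the probes may not separate them. Klra3 measured 8.19, 8.09, 8.06 and 8.16 in control mice, 7.99, 8.06, 7.93 and 8.08 on HFD-CO and 7.73, 7.86, 7.76 and 7.80 on HFD-ED. The HFD-CO mice overlapped control and the HFD-ED mice did not.

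Innate sensing and stromal genes included 2 without overlap. Nod1, a cytosolic sensor of bacterial cell wall, was lower by -0.33 (SE 0.0629, adjusted p = 0.476), from 10.60 to 10.79 in control mice and from 10.14 to 10.58 (median 10.37) on the high-fat diets. Cxcl12, the chemokine by which stromal cells hold lymphocytes and progenitors, was lower by -0.26 (SE 0.051, adjusted p = 0.476). Its control mice measured 12.32, 12.17, 12.12 and 12.21, its HFD-CO mice 11.998, 11.903, 11.939 and 12.082 and its HFD-ED mice 11.77, 12.02, 11.93 and 11.89. Of its 2 other bright probes 1 had the same sign. The lists around them, Toll-like receptors and NF-kB (9 higher, 31 lower of 40) and cytokines (7 higher, 32 lower of 39), had medians near 0 on HFD-CO (-0.0054 and 0.0013). The lipopolysaccharide receptor Tlr4 and its partner Ly96 were at -0.01 and -0.10 on HFD-CO and at -0.26 and -0.37 on HFD-ED.

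Among 26 endothelial genes 19 were lower and 7 higher (median -0.06, with -0.04 on HFD-CO and -0.08 on HFD-ED), and 6 had an unadjusted p under 0.05, all lower. Nos3, which makes nitric oxide, was lower by -0.10 (7 of 8 high-fat mice below all control mice), Tek, the angiopoietin receptor, by -0.08, Eng, a TGF-beta coreceptor, by -0.15 and Sox18, a vascular transcription factor, by -0.25. Adjusted p ran from 0.645 to 0.748 in these 4. Without control replicate 1 the list's median was -0.02, and without control replicate 2 it was -0.03. Clock genes were lower in 15 of 19 (median -0.05), with 0 at an unadjusted p under 0.05. Dbp, an output gene of the clock, was at -0.39 with a 95% interval of -0.96 to 0.17, and time of day of sampling is not given in the sources used here.

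Of 33 respiratory chain genes 25 were higher (median 0.07, with 0.02 on HFD-CO and 0.10 on HFD-ED), among them Sdhc, of complex II, at 0.15 (SE 0.0488), Ndufb9 at 0.24 and Ndufa4 at 0.20. Without control replicate 2 the median was 0.03, and with HFD-ED replicate 1 as the only mouse of that diet it was 0.02. Of 25 oxidative stress genes 16 were higher in the pooled contrast, with medians of 0.01 on HFD-CO and 0.08 on HFD-ED. Gstp1, a glutathione transferase, was higher by 0.28 (SE 0.0715, adjusted p = 0.586), with 0.18 on HFD-CO and 0.37 on HFD-ED, and Prdx3, the mitochondrial peroxiredoxin, by 0.47 (SE 0.165), with 0.22 on HFD-CO and 0.71 on HFD-ED and 7 of 8 high-fat mice above all control mice.

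Several other genes had the same direction on both oils. Egr1, an immediate-early transcription factor, was higher by 0.18 and 0.17, Pdia6, an endoplasmic reticulum oxidoreductase, lower by -0.14 and -0.16, and Bst2, an interferon-induced membrane protein, lower by -0.36 on each diet. Cebpd, a glucocorticoid-responsive factor, was higher by 0.16 and 0.31 and Klf9, another, lower by -0.32 and -0.25. The adjusted p of these 5 ran from 0.67 to 0.781. All overlapped control. Of the 8 high-fat mice, those above all control mice numbered 6 for Egr1 and 4 for Cebpd. Those below all control mice numbered 5 for Pdia6, 3 for Bst2 and 0 for Klf9. Adipocyte genes were higher in 20 of 25 (median 0.03). Besides Retsat they included Car3 (0.30) and Lep (0.12), both larger on HFD-CO, Col3a1, a collagen of stroma, was at 0.11, while Pparg, the adipocyte nuclear receptor, was lower by -0.24. Adipoq, at a mean of 7.97, was at 0.40 (adjusted p = 0.794), with 0.62 on HFD-CO and 0.17 on HFD-ED, and the adipocyte markers Plin1 and Cidec stood at means of 7.10 and 7.23, and the part of adipose tissue in these values was not tested.

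For other lists the pooled median joined unlike diets. All 40 erythroid genes were higher in the pooled contrast (median 0.35), yet the median was -0.02 on HFD-CO and 0.77 on HFD-ED, and 16 of the 40 were higher on both diets. The list's median deviation was -0.53, 0.76, 1.29 and 0.67 on HFD-ED, -0.27, -0.63, 0.35 and -0.45 on HFD-CO and -0.42, -0.61, -0.10 and 0.14 in control mice. With HFD-ED replicate 1 as the only mouse of that diet the pooled median was -0.09. Cell division genes were higher in 40 of 44 (median 0.33), with 0.05 on HFD-CO and 0.60 on HFD-ED, and 31 differed between the oils at an unadjusted p under 0.05, with 11.9% of all genes doing so. Plk1, a mitotic kinase, was at 0.25 on HFD-CO and 0.96 on HFD-ED, Cdc20, an activator of mitotic exit, at 0.18 and 1.01 and the erythroid carbonic anhydrase Car1 at 0.41 and 1.70. The globin Hba-a1 was at 0.14 and 0.10, but its mean of 14.48 lay close to the highest value of all, 14.79, so its difference cannot be set beside theirs. Without HFD-ED replicates 2 to 4 the median of the cell division list was 0.04.

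B cell genes were lower in 25 of 33 (median -0.10), with -0.0056 on HFD-CO and -0.19 on HFD-ED, and the median was -0.05 without control replicate 2 and -0.0023 with HFD-ED replicate 1 as the only mouse of that diet. The Src-family kinase Blk was at -0.18 and -0.58 on the diets, and Fcmr, a receptor for IgM, at -0.14 in the pooled contrast. Within this list Pou2f2 had near-equal values on both oils, whereas Cd40, the costimulatory receptor of B cells, did not. Cd40 measured 10.57, 10.60, 10.56 and 10.56 in control mice, 10.52, 10.32, 10.49 and 10.45 on HFD-CO and 10.11, 10.08, 9.76 and 10.22 on HFD-ED. All 8 lay below control, by -0.13 on HFD-CO and -0.53 on HFD-ED (oils -0.40, 95% interval -0.58 to -0.22, adjusted p = 0.34). Similar medians close to 0 on HFD-CO were found for dendritic cells and MHC class II (-0.0082) and for interferon-gamma response and MHC class I (-0.017), with -0.20 and -0.21 on HFD-ED. Clec9a, of cross-presenting dendritic cells, was at -0.06 and -0.51. T cell genes were lower in 25 of 36 (median -0.04, with 0.01 on HFD-CO), and among them the adaptor Lcp2 was at -0.15 and -0.16 on the diets, the kinase Prkcq at -0.02 and -0.14 and the exchange factor Rasgrp1 at -0.04 and -0.44.

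Pancreatic acinar genes, which the spleen does not make, were high in 2 HFD-CO mice. The list's median deviation was 4.58 in HFD-CO replicate 4 and 0.53 in HFD-CO replicate 1, and between -0.62 and -0.17 in the other 10 mice. Its pooled median of 0.72 became -0.04 without those mice. Without both of them the pooled differences were -0.23 for Klre1, -0.25 for Hsd3b7, -0.45 for Pou2f2, -0.23 for Axl and -0.29 for Cxcl12. With HFD-ED replicate 1 as the only mouse of its diet they were -0.27, -0.26, -0.31, -0.18 and -0.33. In these genes every high-fat mouse lay below every control mouse, so leaving out high-fat mice could not reverse their direction. Only the sizes can be read from these fits.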

How the data were processed

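Spleen RNA of 12 mice was read on Illumina MouseWG-6 v2 BeadChips. The authors read bead intensities in GenomeStudio, then stabilized the variance and quantile normalized in lumiExpresso (lumi 2.18.0, per the labels), so the deposited values are close to log2. They were used unchanged. Of 45281 probes, 34885 carry 1 symbol, 18 several and 10378 none. The number of arrays limits the precision, and chip positions are not given in the sources used here.

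Every probe entered 1 linear model with a coefficient for each diet (limma 3.58.1 under R 4.3.3, eBayes defaults, two-sided). The pooled contrast was the mean of HFD-CO and HFD-ED minus control, adjusted over all probes by Benjamini-Hochberg, at 0.05 and at the study's stricter 0.001. A check on simulated data with added shifts required only that the fitted pooled difference match the shift, and set no requirement on the calls. Intervals are limma's at 95%.

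The members and the 35 gene lists (934 genes measured) were chosen with earlier results of these data known. Named by rule were, among genes without overlap, the 12 of smallest p per direction and up to 6 with the largest smaller-of-both difference, and up to 4 genes of smallest p per list. Clone and predicted gene symbols were counted but not named. Alternatives were a replicate block, other variance models, weights, filters, normalizations and probe rules, and leaving out mice. Replicate numbers were not taken to pair mice in the main fit. Of 12 pairs of equal number on different diets 4 correlated above 0.1. The pairs of replicate 3 gave 0.179 (control and HFD-CO), 0.163 (control and HFD-ED) and 0.394 (HFD-CO and HFD-ED). Such correlations cannot show whether mice of equal number shared a batch.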

Additional observations from a re-analysis of the deposited data

Results flagged for a closer look

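In a group of 4 mice a value was singled out where its gap to the nearest other mouse, as a share of the group's range, passed Dixon's critical value for 4 values, which chance gives in about 1 group in 20. Over 291 groups for single genes and 105 for lists this happened 18 times. On the log2 scale, with the other 3 mice in brackets, the control mice were Zfyve27 in replicate 2 at 8.08 (7.97 to 7.98), Yod1 in replicate 1 at 7.78 (7.92 to 7.93), Apoe in replicate 3 at 10.93 (10.64 to 10.67), Prkcq in replicate 3 at 7.88 (7.83), Cebpd in replicate 2 at 8.62 (8.34 to 8.35), Klf9 in replicate 4 at 9.24 (9.77 to 9.86) and Lep in replicate 1 at 7.25 (7.12 to 7.13). On HFD-CO they were Isoc2a in replicate 3 at 7.26 (7.28) and Rasgrp1 in replicate 4 at 11.52 (11.05 to 11.08). On HFD-ED they were C1qa in replicate 2 at 9.40 (9.07 to 9.11), Ccl5 in replicate 3 at 11.01 (11.51 to 11.56), Fcmr in replicate 2 at 12.85 (12.79), Dbp in replicate 2 at 9.78 (8.84 to 8.94) and Pparg in replicate 2 at 8.33 (7.87 to 7.95).

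Among the median deviations of lists, those singled out were cholesterol synthesis in HFD-ED replicate 2 at -0.06 (others 0.01), lipid uptake, droplets and lysosomes in control replicate 4 at -0.01 (0.03 to 0.04), type I interferon response in control replicate 1 at -0.04 (0.00 to 0.01) and pancreatic acinar genes in HFD-ED replicate 1 at -0.17 (-0.55 to -0.54).

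Megakaryocyte and platelet genes lay on opposite sides of the control mean on the diets. The list's median deviation was -0.09, -0.06, -0.13 and -0.06 on HFD-CO, and control mice ran from -0.07 to -0.01, so these ranges overlapped. Of the high-fat mice, 2 lay below all control mice and 4 above them all. As differences from the control mean of the list's median deviation, all 4 HFD-CO mice lay below 0 (mean -0.05) and all 4 HFD-ED mice above 0 (mean 0.18), a difference of 0.23 between the oils that was not tested.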

How the results depend on the processing

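No probe was called by the pooled contrast at 0.05 under the replicate block (0 higher, 0 lower, though with 91 genes higher and 302 lower at p under 0.05 on both diets, beside 72 and 260 without the block), with 1 coefficient for all 8 high-fat mice, under the other variance models and weights, the filter on dim probes, 1 probe per symbol or the other normalizations, nor at 0.001. With HFD-ED represented by replicate 1 alone, 2 probes without a symbol were called higher, with the lone mouse assumed to vary like the others. Leaving out 1 mouse at a time gave 0 to 1 probes called lower (Fyb, adjusted p = 0.0499) and 0 higher. Genes without overlap numbered 62 to 136 higher and 101 to 247 lower with 1 mouse left out, 163 and 192 with HFD-ED replicate 1 alone, 117 and 217 with HFD-CO replicates 2 and 3 alone, and 16 and 53 among genes with a mean of 7.5 or higher. Fewer mice make separation easier and fewer genes give fewer, by construction. Genes at p under 0.05 on both diets numbered 69 to 100 higher and 192 to 356 lower with 1 mouse left out, 20 and 113 among genes of 7.5 or higher in a fit of those probes, and 148 lower with HFD-ED replicate 1 alone. Among genes of 7.5 or higher, the median was -0.0214 for LXR targets, -0.0911 for clock genes and -0.1661 for natural killer genes, and clock genes ran from -0.0724 to -0.024 with 1 mouse left out. No named gene that was carried through the alternatives changed direction under any of them. For genes without overlap, leaving out mice could not reverse the direction, so in those fits this holds by construction. Lamp2 and Adipoq were not among the genes carried through. Among named genes not already given with a mouse left out, Lamp1 was at -0.095, Ndufa4 at 0.12, Hba-a1 at 0.05 and Mvd at -0.03 without control replicate 1, Mvd at -0.10 without control replicate 2, Klf9 at -0.43 and Ebp at -0.03 without control replicate 4, and Ebp at -0.04 without HFD-ED replicate 4. Dim genes are compressed, so their differences are too small, and every comparison with control shares the same 4 control mice.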
